A study of Homo sapiens with 12 samples.

Results

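The human embryonic kidney line HEK293T was compared with wild-type cells of eHAP1, a haploid line derived from a chronic myeloid leukaemia, as profiled by LAST-seq, which amplifies the RNA of single cells by in vitro transcription and counts molecules by unique molecular identifiers (UMIs). All 20 HEK293T and all 148 eHAP1 WT single cells were used, 168 of the 403 wells of the series. The HEK293T cells came from 2 libraries of 10 cells, given A60 spike-in RNA in library 1 and ERCC spike-in RNA in library 2. They were grown in DMEM with serum, sorted as live cells without a gate on the cell cycle, and not authenticated. The eHAP1 WT cells, unedited controls of a knockout experiment, came from batches of 73 and 75 cells. They were grown in IMDM, from an expanded single-cell clone kept with 10-Deacetylbaccatin-III at subcloning, and gated for live haploid G1 cells of narrow size. Wells were pooled by 10 for HEK293T and by 80 for eHAP1 before amplification. The line, the medium, the gate, the pool size and the library therefore cannot be told apart, and each difference below is one between these libraries. Fewer transcripts per cell and a smaller share of the cell's RNA cannot be told apart either.

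A cell line keeps part of the gene programme of the cell it came from, held by transcription factors that act in sets, and loses or gains single genes in culture. HEK293T is known for renal progenitor and neuronal features, and HAP1 derivatives for an adherent state with little of the blood programme of the parent leukaemia. In G1, genes of DNA replication and of mitosis are usually low. In a sample gated for G1, both sets are therefore of interest beside a sample that was not gated.

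The HEK293T libraries held 1424870 and 1509801 gene UMIs, with 82596 to 190557 in single cells. The eHAP1 batches held 7370620 and 12301326, with 18022 to 926415 in single cells. The 4 eHAP1 cells above 250000 UMIs gave 11.3% of the eHAP1 UMIs. The libraries of a line and of both lines shared cell barcodes, 10 between the HEK293T libraries, 9 between each HEK293T library and each batch and 70 between the batches, and Pearson's r across genes between cells of the same barcode had a median of 0.671 for HEK293T library 1 and batch 2 and 0.633 for library 1 and batch 1, beside 0.665 and 0.642 over all pairs of these cells. Levels are given as CPM, the UMIs of a gene per 1000000 gene UMIs. Between 100 and 300 CPM, the squared difference between the eHAP1 batches over that expected from counting had a median of 0.0943, where counting alone gives 0.455, and the HEK293T libraries had 3.05. The batches had 0.230 between 50 and 100 CPM, 1.39 between 10 and 50 and 1.25 above 300. They were thus more alike than counting gives between 50 and 300 CPM and less alike outside this range. Whether the authors' batch correction was applied to these tables is not stated, and the calls were also made with eHAP1 as 1 sample.

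The labels were checked by marker genes fixed for each line. Of the kidney and neuronal markers of HEK293T, NEFL was higher in HEK293T, but PAX2, a renal progenitor factor, was at 0 and 1.32 CPM in the HEK293T libraries and at 15.6 in eHAP1. LHX1 and INA did not pass the test, EYA1 had 3 and 1 UMIs in the lines, and NEFM had none in the single cells of either line. The markers thus went against the kidney label in part, and the lines are called by their names only. Of the blood markers, GATA1 and HBG1 had no UMI in either line, GATA2 was at 20.4 and 13.2 in HEK293T and 12.5 in eHAP1, and RUNX1 was at 2.85 in eHAP1 and 0 in HEK293T. Of 22 fibroblast, endothelial and lymphoid markers, 7 had a UMI, with sums of 10.5 and 11.9 CPM in the HEK293T libraries and 10.7 in eHAP1.

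Cell-line identity was examined across 13105 genes that passed a filter on low counts. UMIs were summed over the cells of a library and scaled to all gene UMIs, and a gene was called at an adjusted p under 0.05 and at least 2-fold by edgeR's quasi-likelihood test. HEK293T was higher in 1719 genes and eHAP1 in 1514, which makes 13.1% and 11.6% of the genes tested, 24.7% in either direction. Counts of called members in the lists below are read beside these shares. With eHAP1 as 1 sample, whose spread then came from the HEK293T pair alone, the counts were 1181 and 1015. At an unadjusted p under 0.05 there were 6018 genes. The split of the calls depended on the scale. Of all calls, 53.2% were higher in HEK293T by total UMIs and 40.7% by TMM factors, which called 1349 (10.3%) and 1965 (15.0%). The median log2 fold of HEK293T over eHAP1 over all genes tested was 0.15 by total UMIs and -0.05 by TMM, so folds near 2 are read beside this shift. TMM kept 1331 of the 1719 and 1514 of the 1514, and none changed direction. In the plot of all genes, the called genes fan out from the diagonal on both sides.

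**Figure D1:**
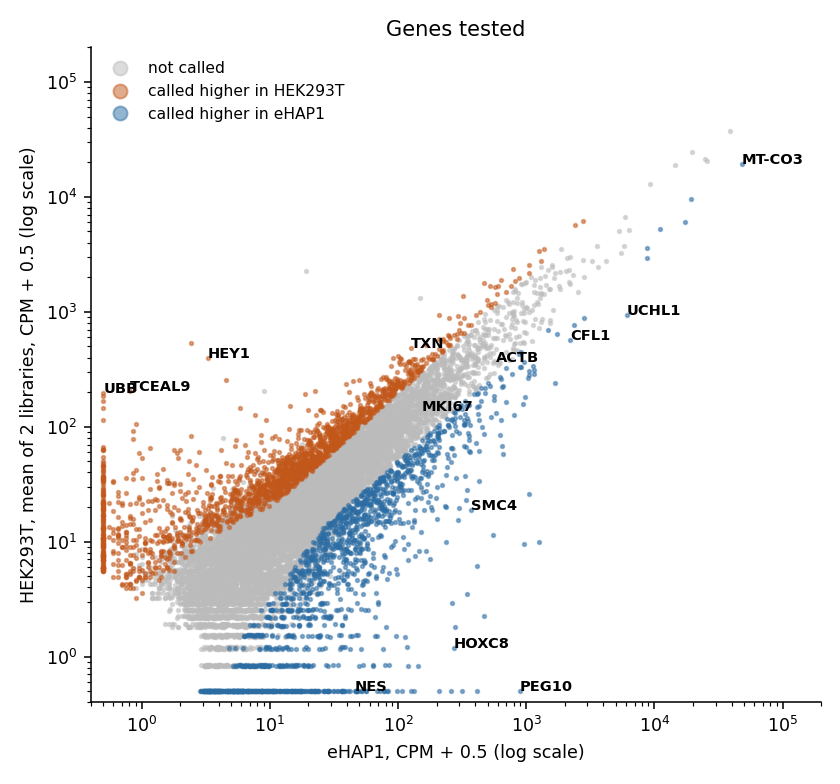
CPM of each gene tested, plus 0.5, for eHAP1 (both batches summed) against the mean of the 2 HEK293T libraries, both axes on a log scale. Colours mark the 1719 genes called higher in HEK293T and the 1514 called higher in eHAP1, with genes such as UBB and PEG10 at the edge of the plot where the other line had no UMI.

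The largest differences were all-or-none. UBB, which encodes polyubiquitin, GAL, which encodes the neuropeptide galanin, and the X-linked genes TCEAL8, TSPAN6 and BEX2 were seen in every HEK293T cell and in none of the eHAP1 cells. PEG10, an imprinted gene of retrotransposon origin, ITM2A, a membrane protein gene, GTSF1, a germline small RNA pathway gene, HSPA1A, an inducible heat-shock chaperone gene, and the antisense RNA gene ELFN1-AS1 were seen in each of the 145 eHAP1 cells thinned to 50000 UMIs and in no HEK293T cell.

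UBB (ENSG00000170315, GRCh38 chr17:16380798-16382745) was at 204 and 191 CPM in the HEK293T libraries. With no UMI among 19671946 in eHAP1, which allows up to 0.153 CPM, it was at least 1296-fold higher in HEK293T. The ubiquitin pseudogenes UBBP1 and UBBP4, which can share reads with UBB, were also without a UMI in eHAP1, so these 3 genes are uncertain as separate items. GAL was at 183 in both HEK293T libraries, at least 1200-fold higher than the limit in eHAP1. TSPAN6, a tetraspanin gene, was at 119 and 174. HEY1, a Notch target, was not absent but was at 378 and 409 in HEK293T and 2.58 and 2.93 in the eHAP1 batches, a 141-fold difference (log2 fold 7.13, SE 0.13, edgeR adjusted p = 0.00035). AMOT, a regulator of YAP at junctions, was 63.3-fold and the zinc finger gene ZNF503 26.8-fold higher in HEK293T.

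In the other direction, PEG10 (ENSG00000242265, GRCh38 chr7:94656325-94669695) was at 880 and 892 CPM in the eHAP1 batches and had no UMI among 2934671 in HEK293T, which allows up to 1.02 CPM, so it was at least 868-fold higher in eHAP1 than in these cells. The 15-pg RNA and lysate libraries of HEK293T had PEG10 at 1.804 and 1.253. The bound was 402-fold for ITM2A and 310-fold for GTSF1. HSPA1A was at 207 and 208 in eHAP1, at least 203-fold higher. HSPA1A and HSPA1B are nearly identical and their reads may be split or dropped, and the RNA and lysate libraries had HSPA1A at 3.61 and 3.76. The metallothionein gene MT1E was at 122 and 127, and MFNG, a glycosyltransferase gene that modifies Notch, was at 107 and 108. HOXC8 had 2 UMIs in HEK293T, a 397-fold difference with an exact counting interval of 110 to 3280. The 15-pg RNA and lysate libraries of HEK293T had HOXC8 at 8.12 and 0 CPM, and the interval does not cover this spread. FERMT1, the kindlin of epithelial cells, and SERPINB9, a granzyme inhibitor gene, had 1 UMI each in HEK293T and were 417-fold (interval 74.8 to 16487) and 350-fold (62.7 to 13817) higher in eHAP1.

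**Figure D2:**
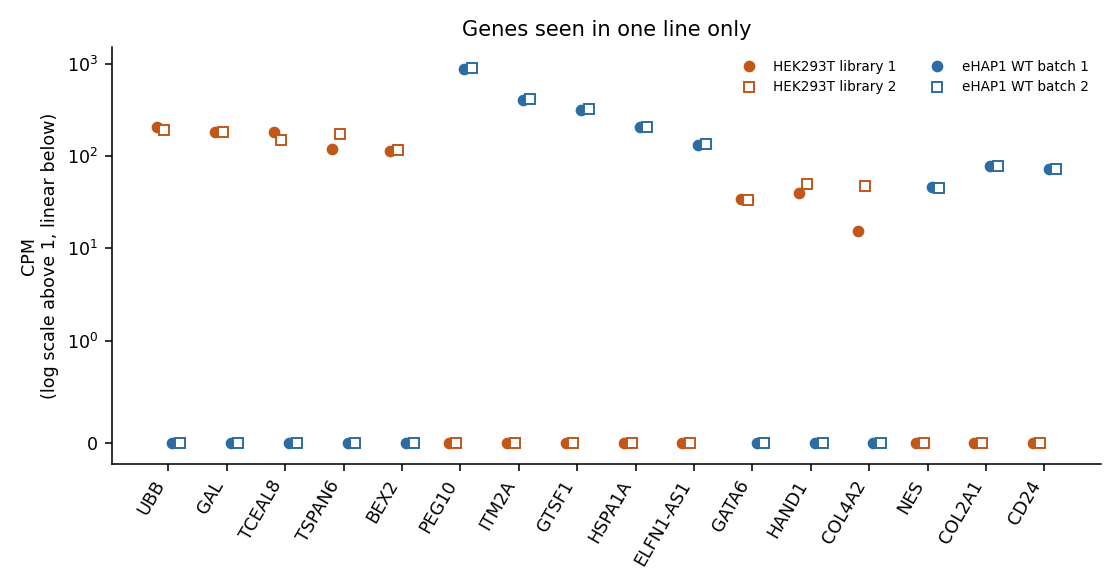
CPM in each HEK293T library and eHAP1 batch for 16 genes seen in one line only, on an axis that is linear below 1 and logarithmic above. Every gene shown lies at 0 in both libraries of one line and above 15 in both of the other.

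In all, 2462 genes had a UMI in HEK293T and none in eHAP1, and 5210 the reverse, where the eHAP1 tables held more UMIs. With at least 20 CPM in the line that showed them, 49 genes were seen in HEK293T alone and 63 in eHAP1 alone. All of these were missing as rows of the other line's tables and were read as 0, since those tables list few or no rows of zeros. The 49 included GATA4, GATA6, HAND1, SNAI2, HOXD9 and HOXD10. The 63 included NES, CD24, COL2A1, UTF1 and the innate immune adaptor gene MYD88, which were chosen from these after their values were seen.

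The genes TCEAL8, BEX2 and TCEAL9 lie close together on the X chromosome, in a family of small proteins named BEX and TCEAL, of which 13 genes had a UMI. Because they moved together, their promoters are given here as 300 bases around the RefSeq start, GRCh38.p14, with each CG dinucleotide in capitals, beside that of ITM2A, an X-linked gene with the opposite pattern. CG, read the same on both strands, was present in 95.8% of the 27305 promoters of this length, with a median of 14, a 10th percentile of 1 and a 90th of 37. TCEAL8 had 14 at chrX:103255106-103255405 (minus strand), BEX2 17 at chrX:103310941-103311240 (minus strand), TCEAL9 10 at chrX:103356256-103356555 (plus strand) and ITM2A 11 at chrX:79367285-79367584 (minus strand).
TCEAL8: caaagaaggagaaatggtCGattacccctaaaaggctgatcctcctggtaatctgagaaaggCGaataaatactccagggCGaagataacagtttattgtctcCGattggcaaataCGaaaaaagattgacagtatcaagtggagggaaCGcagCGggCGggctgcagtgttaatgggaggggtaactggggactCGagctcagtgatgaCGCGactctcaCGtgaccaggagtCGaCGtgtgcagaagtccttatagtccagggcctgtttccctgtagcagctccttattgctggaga
BEX2: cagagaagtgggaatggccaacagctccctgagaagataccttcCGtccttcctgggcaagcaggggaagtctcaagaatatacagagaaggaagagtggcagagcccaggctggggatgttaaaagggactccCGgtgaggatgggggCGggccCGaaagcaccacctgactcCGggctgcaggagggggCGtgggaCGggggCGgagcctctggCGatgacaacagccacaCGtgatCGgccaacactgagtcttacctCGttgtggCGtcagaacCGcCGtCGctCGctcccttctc
TCEAL9: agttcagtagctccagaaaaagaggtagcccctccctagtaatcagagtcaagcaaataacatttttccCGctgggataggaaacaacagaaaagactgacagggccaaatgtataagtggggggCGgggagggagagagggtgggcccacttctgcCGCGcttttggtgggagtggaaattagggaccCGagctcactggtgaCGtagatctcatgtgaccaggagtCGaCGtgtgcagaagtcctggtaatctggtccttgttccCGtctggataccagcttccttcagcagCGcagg
ITM2A: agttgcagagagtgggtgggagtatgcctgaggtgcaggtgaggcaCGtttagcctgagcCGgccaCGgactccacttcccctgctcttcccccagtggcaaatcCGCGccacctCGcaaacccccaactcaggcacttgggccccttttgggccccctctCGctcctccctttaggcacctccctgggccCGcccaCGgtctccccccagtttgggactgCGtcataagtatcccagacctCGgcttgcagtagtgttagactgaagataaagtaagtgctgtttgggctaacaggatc

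All of these counts lie between the 10th and the 90th percentile. Of the 11 members tested, 8 were higher in HEK293T and 3 in eHAP1, under total UMIs and under TMM. The family was chosen after its values were seen. TCEAL9 was at 196 and 214 CPM in HEK293T and had 6 UMIs in eHAP1, a 673-fold difference. BEX1 was at 48.4 and 75.5 in HEK293T and had no UMI in eHAP1. The neighbours were not silent as a block. BEX3 was at 1086 and 1431 in HEK293T and 491 in eHAP1, and BEX4 at 189 and 317 against 48.7. TCEAL4 was at 175 and 150 against 70.1. TCEAL3 ran the other way, at 3.51 and 9.94 in HEK293T and 62.8 in eHAP1, as did BEX5 and TCEAL2. Of the wider list of cancer-testis and related genes, 10 of 13 members tested were higher in HEK293T and 1, MAGED2, in eHAP1, and the summed level was 2533 and 3255 CPM against 1669. Of these 10, 5 are the BEX genes BEX1, BEX2, BEX3 and BEX4 and TCEAL9, so the list repeats that family, and BEX3 gives much of the sum.

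Lineage factors were called in most of the kidney list. Of 20 members tested, 11 were higher in HEK293T and 2 in eHAP1, with a median log2 fold of 1.64 (1.43 by TMM), beside 0.15 over all genes. CITED1, a co-activator of nephron progenitors, was at 85.6 and 80.1 CPM in HEK293T and 10.5 in eHAP1 (log2 fold 2.95, SE 0.20, edgeR adjusted p = 0.0016). SIX2, a homeobox factor of kidney progenitors, was at 26.7 and 39.1 against 0.813. FOXC1 was at 102 and 72.2 against 28.7, and TFAP2A at 35.8 and 57.6 against 14.3. GATA6, a factor of mesoderm and endoderm, was at 34.4 and 33.1 and had no UMI in eHAP1, at least 221-fold higher. PAX2 and GATA3 were the 2 higher in eHAP1, GATA3 at 6.32 and 11.9 in HEK293T and 47.4 in eHAP1. The HEK293T libraries and the eHAP1 batches did not overlap for any of these genes. All of them were called on these same values, so this adds no support.

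The neural list moved mostly the other way, with 7 of 16 tested members higher in eHAP1 and 3 in HEK293T and a median of -1.57 (-1.78 by TMM, and -1.07 by total UMIs with genes at 0 in 1 line set at their bound). UCHL1, a deubiquitinase abundant in neurons, was at 1028 and 833 in HEK293T and 6028 and 6158 in the eHAP1 batches (log2 fold of HEK293T over eHAP1 -2.71, SE 0.11, edgeR adjusted p = 0.00082). OTX2, a forebrain homeobox factor, was at 4.91 and 7.95 against 116 and 120. NES, the intermediate filament of neural progenitors, was at 46.7 and 44.9 in eHAP1 and had no UMI in HEK293T. TUBB2B was at 63.9 and 107 against 467 and 474. NEFL, the light neurofilament, was the reverse, at 29.5 and 9.94 in HEK293T and with no UMI in eHAP1, and DLX2, a forebrain factor, was also higher in HEK293T, at 55.4 and 79.5 against 4.83. Genes of this list were thus higher in either line.

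Blood genes were few in both lines. Of 30 listed, 18 had a UMI and 11 were tested, with 4 higher in eHAP1 and 1 in HEK293T. HBA1, an alpha-globin gene, was at 42.2 and 38.9 CPM in the eHAP1 batches and had no UMI in HEK293T. HBA1 and HBA2 are near-identical, so their split is uncertain. MYB, a progenitor factor, was at 0.702 and 3.31 against 15.8. CD34, a progenitor surface marker, was seen in HEK293T alone, at 5.61 and 7.29. PTPRC had 1 UMI in HEK293T and none in eHAP1.

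Among factors of mesoderm and endoderm, 4 of 19 were higher in HEK293T and 5 in eHAP1. HAND1, TWIST2 and SNAI2 had no UMI in eHAP1, and HAND1, a factor of heart and placenta, was at 40.0 and 50.3 in HEK293T. FOXA1, a pioneer factor of endoderm, was at 2.81 and 1.32 in HEK293T and 33.6 in eHAP1, and FOXA2 and MIXL1 had UMIs in eHAP1 alone. In the pluripotency and oncofetal list, 1 of 11 was higher in HEK293T and 3 in eHAP1. LIN28B, a blocker of let-7, was at 45.6 and 68.2 against 23.8, while HMGA1 was at 273 and 301 against 779 and DPPA4 at 6.32 and 11.3 against 90.1. The HOX genes, counted by cluster after their values were seen, were mostly higher in HEK293T where called. Of the genes tested, 4 of 6 were higher in HEK293T in HOXD and none in eHAP1, 5 of 9 and 1 in HOXB, 4 of 7 and 1 in HOXC, and 1 of 7 and none in HOXA. HOXD13 was at 142 and 109 against 7.12. HOXB4, at 2.11 and 1.32 against 25.3, and HOXC8 were the HOX genes higher in eHAP1.

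**Figure D3:**
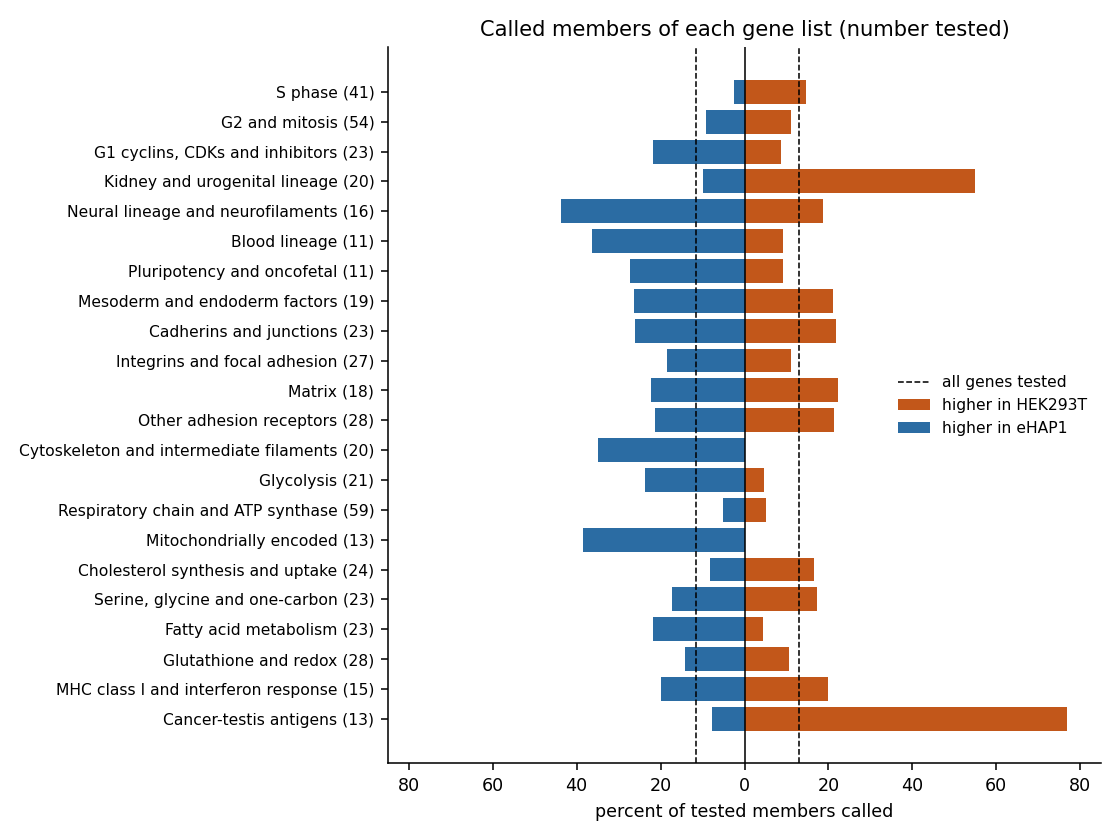
Percent of tested members of each list reported here called higher in HEK293T (to the right) or in eHAP1 (to the left), with the number tested in brackets, and dashed lines at 13.1% and 11.6%, the shares over all genes tested. The kidney list and the cancer-testis list reach farthest to the right, and the neural, mitochondrially encoded, blood and cytoskeleton lists farthest to the left.

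Adhesion genes were called on both sides, in each list of junctions, integrins, matrix and other receptors. The shares higher in HEK293T were 21.7%, 11.1%, 22.2% and 21.4% in this order, beside 13.1% of all genes. Those higher in eHAP1 were 26.1%, 18.5%, 22.2% and 21.4%, beside 11.6%. Of cadherins and junction genes, 5 of 23 were higher in HEK293T and 6 in eHAP1 (8 by TMM). CTNNB1, which links cadherins to actin and carries Wnt signals, was at 149 and 183 in HEK293T and 58.9 in eHAP1, and the gap junction gene GJA1 at 26.7 and 35.1 against 2.95. In the 15-pg RNA and lysate libraries of HEK293T, CTNNB1 was at 123 and 57.6. CDH6 was at 0.702 and 1.32 against 42.9, and CDH2, neural cadherin, at 2.11 and 5.30 against 17.1. JUP, the desmosomal catenin, was at 30.9 and 32.5 against 103.

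Of 18 matrix genes tested, 4 were higher in each line. COL4A2 and COL4A1, which encode the chains of basement membrane collagen, were seen in HEK293T alone, COL4A2 at 15.4 and 47.0 CPM. COL2A1, the collagen of cartilage, and COL11A1 were seen in eHAP1 alone, at 78.1 and 77.3 and at 49.0 and 45.6. The laminin gene LAMB1 was at 20.4 and 37.1 in HEK293T and 6.35 in eHAP1. Of integrins and focal adhesion genes, 3 of 27 were higher in HEK293T (2 by TMM) and 5 in eHAP1 (8 by TMM). ITGA4, a fibronectin and VCAM1 receptor subunit, was at 7.72 and 5.96 against 30.3, and FERMT1 is given above. Of other receptors, 6 of 28 were higher in each line (11 in eHAP1 by TMM). ANXA2, a membrane-binding annexin, was at 64.6 and 71.5 against 648, CD24 at 0 and 0 against 71.7, S100A10, the partner of ANXA2, at 213 and 223 against 85.04, and EPHA7 at 17.5 and 14.6 with no UMI in eHAP1.

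In the cytoskeleton list, 7 of 20 members were higher in eHAP1 and none in HEK293T, by either scale. CFL1, which severs actin filaments, was at 513 and 622 in HEK293T and 2165 and 2214 in the eHAP1 batches (log2 fold -1.95, SE 0.11, edgeR adjusted p = 0.0011). MYL12B, a myosin light chain, was at 88.4 and 141 against 425 and 431. The actin gene ACTG1, also of the list, was not called, at 1795 and 2105 in HEK293T and 1278 in eHAP1, and was chosen after its values were seen. Its edgeR adjusted p was 0.0092 and its fold was under 2.

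Metabolism differed most in the genome of mitochondria. The 13 mitochondrially encoded mRNAs took 15.2% and 13.02% of gene UMIs in the HEK293T libraries, as means over cells, and 18.7% and 19.2% in the eHAP1 batches. The means differed by -4.83 percentage points, HEK293T minus eHAP1, where the libraries of HEK293T differed by an SD of 1.57. The lowest, median and highest cells of HEK293T were at 12.2%, 14.4% and 17.4%, and those of eHAP1 at 16.4%, 18.95% and 21.0%, so that the ranges overlapped between 16.4% and 17.4%. The change was not even. Of the 13, 5 were higher in eHAP1 and none in HEK293T. MT-CO3, of cytochrome c oxidase, was at 19311 and 19532 CPM in HEK293T and 47700 and 47991 in eHAP1, and MT-ND1 and MT-ND5, of complex I, had log2 folds of HEK293T over eHAP1 of -1.52 and -1.55. The 15-pg RNA and lysate libraries of HEK293T had MT-CO3 at 30426.1 and 27231.5, a smaller gap to eHAP1. MT-ND4, not called because its fold was under 2 (edgeR adjusted p = 0.042), was at 26579 and 22378 in HEK293T and 19628 in eHAP1. Nuclear pseudogenes can share reads with these genes.

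Of 59 nuclear genes of the respiratory chain and ATP synthase, 3 were higher in each line, or 1 in HEK293T and 7 in eHAP1 by TMM (5.08% each by total UMIs, beside 13.1% and 11.6% of all genes), and the median log2 fold was 0.16 by total UMIs and -0.06 by TMM. NDUFA1 was at 340 and 393 against 962 and NDUFC1 at 160 and 178 against 564.

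Glycolysis genes were higher in eHAP1 in 5 of 21 and in HEK293T in 1. The 5 were SLC2A3 and SLC16A3, which carry glucose and lactate, PFKP, PFKFB3 and ENO2. PFKFB3, which raises an activator of phosphofructokinase, was at 19.7 and 9.27 against 72.3. SLC16A1, another lactate carrier, was at 66.0 and 75.5 in HEK293T and 20.03 in eHAP1. The list's summed level ran the other way, at 9072 and 9167 CPM in HEK293T and 7854 in eHAP1, of which the enolase ENO1 made 2880 and 3114 against 2178.

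Cholesterol synthesis and uptake had 4 of 24 members higher in HEK293T (3 by TMM) and 2 in eHAP1 (3 by TMM). These are 16.7% and 8.33% by total UMIs, near the 13.1% and 11.6% of all genes. The list had a sum of 1787 and 2114 against 1376. SQLE, an early oxygenase of the pathway, was at 175 and 193 against 78.0, and IDI1 at 125 and 166 against 50.1. The fatty acid list was higher in HEK293T by its sum, at 2357 and 2157 CPM against 1885, and had a median log2 fold of 0.23 (0.03 by TMM). Of 23 members, ACADM was called higher in HEK293T (4.35%), though not by TMM, and 5 in eHAP1 (21.7%). Among the 5, CPT1A, the carnitine transferase of fatty acid import, was at 42.8 and 30.5 against 126. FADS2, a desaturase, was at 9.12 and 7.29 against 45.7. In serine, glycine and one-carbon metabolism 4 of 23 (17.4%) were higher in each line, but 1 in HEK293T and 5 in eHAP1 by TMM. PHGDH, the first enzyme of serine synthesis, was at 187 and 197 against 84.9, and SHMT2, of the mitochondrial branch, at 77.2 and 52.3 against 148. In the redox list, TXN, thioredoxin, was at 483 and 491 in HEK293T and 126 in eHAP1, and NQO1, a quinone reductase, at 5.61 and 3.97 against 84.0.

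The cell cycle was compared because the eHAP1 cells were gated for G1 and the HEK293T cells were not, and the gate cannot be told apart from the line. Summed levels of the S phase list were 4646 and 4282 CPM in the HEK293T libraries and 3653 and 3668 in the eHAP1 batches, as means over cells, a log2 fold of 0.29 with an SD of 0.08 between the HEK293T libraries. At 50000 UMIs per cell, the lowest, median and highest HEK293T cells were at 3220, 4460 and 5380, and the eHAP1 cells at 3060, 3660 and 4360. Of the 20 HEK293T cells, 12 lay above the highest of these 145 eHAP1 cells. Thinning left out 3 eHAP1 cells, and with cells as deposited 5 HEK293T cells lay above the highest of all 148. Of 41 members tested, 6 were higher in HEK293T and 1 in eHAP1 (4 and 3 by TMM), near the 13.1% of all genes for the first. Their median log2 fold was 0.31 by total UMIs and 0.10 by TMM, beside 0.15 and -0.05 over all genes. USP1, a deubiquitinase of DNA repair, was at 407 and 372 against 186, and GMNN, which blocks relicensing, at 350 and 291 against 126. PCNA, the replication clamp, was at 390 and 360 against 264 (edgeR adjusted p = 0.011) and was not called because its fold was under 2. MCM5 was at 145 and 98.0 against 116.

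The G2 and mitosis list did not separate the lines. Its level was 3917 in HEK293T library 1 and 5427 in library 2, with the eHAP1 batches between them at 4479 and 4426. The log2 fold was 0.07 with an SD of 0.33 between the HEK293T libraries, and -0.18 without library 2. At 50000 UMIs per cell, the lowest, median and highest HEK293T cells were at 3480, 4760 and 7380, and the eHAP1 cells at 3600, 4440 and 5460. MKI67, a proliferation marker, was at 115 and 156 in HEK293T and 153 in both eHAP1 batches, TOP2A at 61.1 and 158 against 92.1, CCNB1 at 63.9 and 116 against 104 and CDK1 at 85.6 and 255 against 106. None of the 4 passed the test (edgeR adjusted p of 0.45, 0.68, 0.61 and 0.31). Of 54 members, 6 were higher in HEK293T and 5 in eHAP1 (7 and 5 by TMM), shares below the 13.1% and 11.6% of all genes by total UMIs. SMC4, a condensin subunit, was at 9.83 and 27.2 in HEK293T and 365 and 375 in eHAP1 (log2 fold -4.31, SE 0.34, edgeR adjusted p = 0.0020), while TPX2, a spindle factor, was at 138 and 152 against 53.1. The 15-pg RNA and lysate libraries of HEK293T had SMC4 at 9.02 and 1.25 and TPX2 at 56.8 and 72.7.

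**Figure D4:**
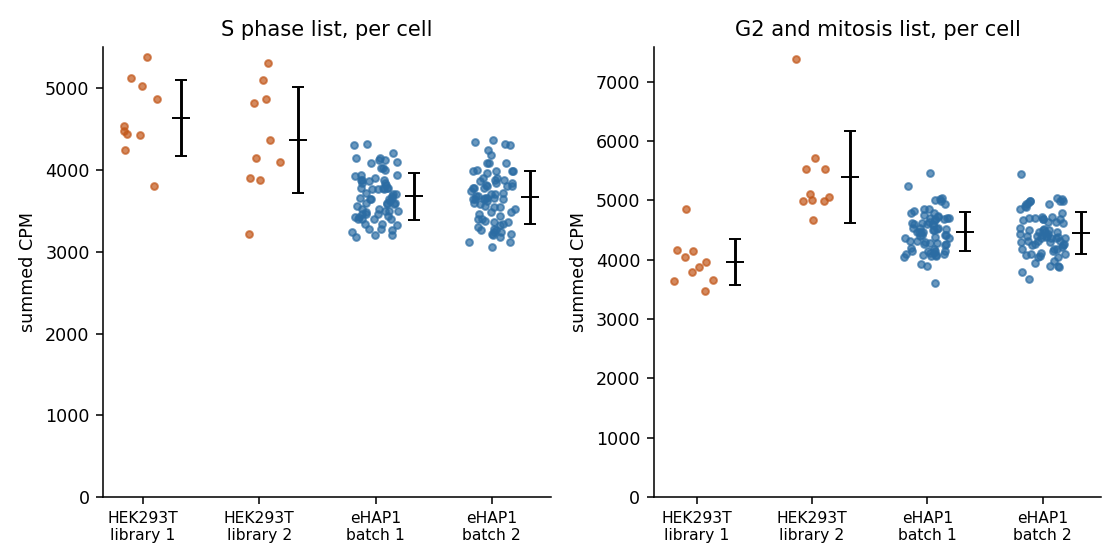
Summed CPM of the S phase list (left) and the G2 and mitosis list (right) in each cell thinned to 50000 gene UMIs, by HEK293T library and eHAP1 batch, with the mean and SD over cells beside the points. In S phase 12 of 20 HEK293T cells lie above all 145 eHAP1 cells shown, and in G2 and mitosis the eHAP1 batches lie between the HEK293T libraries.

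Of 23 regulators of G1 tested, 5 were higher in eHAP1 and 2 in HEK293T (6 and 1 by TMM). CCND1, cyclin D1, was at 13.3 and 8.61 in HEK293T and had 3 UMIs in eHAP1, a 71.5-fold difference with a counting interval of 22.4 to 365. CCNE2 was seen in HEK293T alone, at 2.81 and 4.64. E2F1, which drives S phase genes, was at 90.5 and 84.1 against 300 and RB1, its inhibitor, at 26.0 and 15.2 against 74.4. The 15-pg RNA and lysate libraries of HEK293T had E2F1 at 237 and 91.5. CDKN1C, an imprinted inhibitor of cyclin-dependent kinases, was at 6.32 and 11.9 against 120, and CDKN1B at 13.3 and 29.1 against 20.3 was not called. CDKN1A, another inhibitor of this kind, was at 0 and 19.9 against 6.46 and was not called.

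Of 15 genes of MHC class I and the interferon response, 3 were higher in each line. HLA-C was at 71.6 and 98.0 in HEK293T and 8.03 in eHAP1, and IFITM2, a restriction factor, at 67.4 and 58.3 against 1.47. BST2, another, was at 1.40 and 0 against 35.2. B2M, the light chain of MHC class I, was at 468 and 574 against 800. The reference genes ACTB, at 382 and 341 against 579, and GAPDH, at 146 and 111 against 183, were not called either. ACTB and B2M had edgeR adjusted p of 0.0062 and 0.016 and log2 folds of -0.68 and -0.61, so they were uncalled only because their folds were under 2.

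By chromosome, the median log2 fold less that of all genes was -0.42 for the 507 genes tested on the X chromosome, in both HEK293T libraries below every autosome (-0.49 and -0.38), and 20.1% of its genes were higher in eHAP1 beside 11.6% of all genes. Among autosomes the median ran from -0.28 for chromosome 18 and -0.21 for chromosome 15 to 0.20 for chromosomes 10 and 22. Chromosome 1 had 19.2% of its 1331 genes higher in HEK293T, beside 13.1%. The 36 genes of the mitochondrial genome, at -0.84, were lower still. Karyotypes of these cultures were not analysed here.

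**Figure D5:**
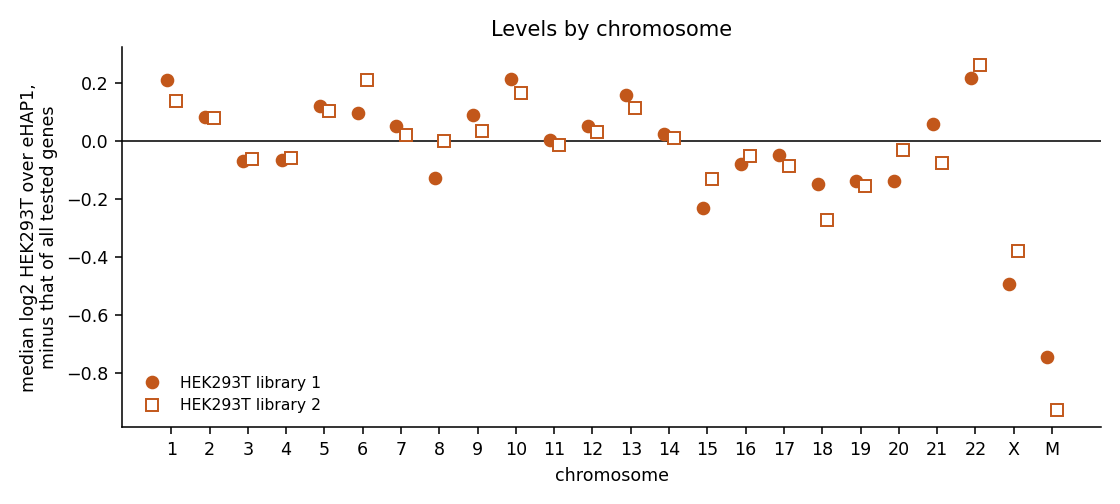
Median log2 ratio of each HEK293T library to eHAP1 (0.5 CPM added) over the tested genes of each chromosome, less the median over all genes tested. The mitochondrial genome (M) and the X chromosome lie lowest in both libraries, and chromosomes 1, 10 and 22 lie above 0 in both.

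The number of genes seen per cell was compared at equal depth. With cells thinned to 50000 UMIs, the HEK293T libraries had means of 7545 and 7789 genes per cell and the eHAP1 batches 7600 and 7290, with SDs over cells of 103 to 131. The means over libraries differed by 222 genes, and the eHAP1 batches by 311, counting genes with at least 1 UMI. With at least 2 UMIs the order was the reverse, with 180 genes between the lines and 93.9 between the batches, while the HEK293T libraries differed by 244 and 246. Without thinning the difference was 786 genes.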

How the data were processed

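LAST-seq UMI counts were analysed for 20 HEK293T and 148 eHAP1 WT single cells. The authors deposited whole-number UMI counts per gene and cell. Whether the eHAP1 counts were corrected for batch before that is not stated. They trimmed reads with cutadapt 1.15, then aligned and counted them in exons with zUMIs 2.9.7 on GRCh38 with annotation release 33 and spike-in sequences. Reads with more than 1 UMI base under Phred 20 were left out, and UMIs were collapsed by identity. A subsampling of reads to equal depth is named for the LAST-seq, SMART-seq and CEL-seq data. The eHAP1 cells used here held 18022 to 926415 gene UMIs. For eHAP1, wells under 50000 exon reads or under 50% exon mapping were removed, and ComBat-seq is named among the methods. Gene symbols and positions came from GENCODE 44 (99.5% of 25131 identifiers matched). Counting by strand was not considered, and antisense and overlapping genes are uncertain.

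Spike-in rows were removed. UMIs were summed over the cells of the 2 HEK293T libraries and 2 eHAP1 batches, scaled to total gene UMIs (CPM, per 1000000) and tested with edgeR 4.0.16 (filterByExpr, glmQLFit and glmQLFTest at their defaults, Benjamini-Hochberg adjustment over all genes tested). Nothing states that libraries or batches came from separate cultures, so p-values measure only the spread between these samples, which may be technical. On simulated counts of 13105 genes for this comparison, 174 of 200 genes changed 4-fold were recovered with 3 false calls. Of 200 changed 8-fold, 192 were recovered with 2 false calls. The simulation gave a gene the same spread in every library and changed no gene of low level. In the data, the squared difference over that from counting was 0.0943 for eHAP1 and 3.05 for HEK293T between 100 and 300 CPM. The simulated false calls therefore do not measure those in these data. During the work eHAP1 was for a time taken as 1 sample in the leading fit, and 4 combinations of the legacy and robust options of glmQLFit were run in both forms with their calls in view. The fit as first planned, with default options, was then kept, and every combination is given among the alternatives. Cells were thinned without replacement to 50000 UMIs (80000 as an alternative), which left out 3 eHAP1 cells. A count of 0 was given an upper limit of 3 UMIs over a line. Intervals of folds with 1 to 3 UMIs are exact (Clopper-Pearson, 95%). Limits and intervals cover counting error only. DESeq2 1.42.0 was an alternative. Python 3.11.15 was used for summaries.

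Genes named were the 10 largest folds in each direction among called genes of at least 100 CPM, the 5 highest with no UMI in the other line, the 3 highest called members of each list (up to 6 for lineage and adhesion), reference genes, CDKN1A and cell cycle genes, and those said to be chosen after their values were seen. The comparison, the lists and the members were chosen with earlier results of these data known. Of the listed symbols, 80 had no row in the tables. Some genes and 1 list that this rule covers are not reported here.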

Additional observations from a re-analysis of the deposited data

How the results depend on the processing

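No paired analysis was possible because eHAP1 WT is a single sample whose batch numbers are not the replicate numbers of HEK293T. The counts of calls were 1719 higher in HEK293T and 1514 higher in eHAP1. Over leaving out each library or batch they ran from 1139 to 1876 and from 1011 to 1751, the lowest without eHAP1 batch 2 and without batch 1. A lone HEK293T library was taken to vary like the eHAP1 batches. With HEK293T from the 15-pg RNA and lysate libraries, they were 641 and 758. Of the 1719 and 1514 genes called, 723 and 987 were also at least 2-fold with the RNA and lysate libraries. With all 4 HEK293T libraries, added after seeing the data, the counts of calls were 1130 and 1010. Scalings, thinning, no filter, no fold minimum, DESeq2, eHAP1 as 1 sample, removal of mitochondrial genes or of the deepest cells, and 6 other edgeR option sets, also added after seeing the data, stayed within 1.5 times of both counts, with 1181 to 1768 and 1015 to 1439 among the option sets and 1317 and 1671 for DESeq2. With no fold minimum there were 2459 and 1868.

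The difference in genes per cell was 786 for cells as deposited. With cells as deposited, added after seeing the data, 5 HEK293T cells in place of 12 lay above the highest eHAP1 cell in S phase genes. The S phase log2 fold was 0.19 on totals without mitochondrially encoded genes and ran from 0.23 to 0.34 over left-out libraries. The G2 and mitosis fold was -0.031 on those totals and ran from -0.18 to 0.29. The mitochondrial difference ran from -5.94 to -3.72 points.

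Of 172 named genes tested, the call and direction held in 3045 of 3356 refits, the call was lost in 279, gained in 7 and the sign turned in 25. The call and direction held in 96 of 167 genes with HEK293T from the 15-pg RNA and lysate libraries. In this refit the call was lost in 67 and gained in 2, and the sign turned in 2. Every other refit used single cells of HEK293T, so the pooled count mostly reflects the same libraries. Over all refits, the turned signs were of genes not called. MCM5 had -0.14 by TMM and by the 4 HEK293T libraries, -0.12 by RLE and DESeq2, -0.0034 with thinned cells, -0.25 without HEK293T library 1, -0.38 from RNA and lysate and -0.029 without mitochondrial genes. CDKN1B had -0.18 by TMM, -0.16 by RLE, -0.17 by DESeq2, -0.64 without library 2, -0.12 without batch 2, -1.42 from RNA and lysate, -0.063 without mitochondrial genes and -0.48 with the 4 libraries. With library 1 or library 2 left out, the folds ran from -8.50 to 1.63 for CDKN1A, -0.41 to 0.033 for MKI67, -0.59 to 0.77 for TOP2A, -0.70 to 0.16 for CCNB1, -0.31 to 1.27 for CDK1, -0.25 to 0.32 for MCM5, -0.64 to 0.49 for CDKN1B and -6.92 to 0.89 for TAL1. CDKN1A had -0.53 with thinned cells and TAL1 0.23 with legacy FALSE in edgeR. The cause was not tested.

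Depth limits HEK293T more than eHAP1, as 3 UMIs over its 20 cells make 1.02 CPM.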

Other observations

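Some genes differed between the HEK293T libraries more than between the lines and were not called by total UMIs. SSBP2 was at 4541 CPM in library 1, 11.3 in library 2 and 18.6 in eHAP1, and 1 cell gave 13.2% of its HEK293T UMIs. TMM factors called it higher in HEK293T. CCDC136 was at 14.0 in library 1, 2622 in library 2 and 149 in eHAP1, also with 13.2% from 1 cell. In the 15-pg RNA and lysate libraries SSBP2 was at 7.21 and 22.6 and CCDC136 at 3.61 and 53.9. These genes were chosen after their values were seen.

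Summed over the cytosolic ribosomal protein genes, HEK293T cells had a median of 11.4% of gene UMIs, between 10.1% and 12.2%, and eHAP1 cells a median of 8.77%, between 8.32% and 9.41%, so the cells of the lines did not overlap. The spread over cells does not stand for replicates of a line.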
